A study of Mus musculus with 12 samples.

Results

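The genes described here copy the genome in S phase: they assemble and drive the replication fork, make the deoxynucleotides it consumes and rebuild chromatin behind it. They were chosen by name, 41 genes in all, and found on the arrays through probes whose accession maps to the gene symbol. Of the 41 genes, 37 had a matched probe, 44 probes in all, and all 44 passed the filter on dim probes. Orc1, Gins1, Gins2 and Rfc3 had no matched probe and were not analysed here. The 37 measured genes stood among 25260 genes or unnamed accessions kept over the 12 arrays.

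Whole-liver RNA came from C57BL/6 mice carrying MycF/F alleles, with or without ERT2-Cre, fed for 2 days with control chow or with chow holding 0.1% Wy-14643, an agonist of the nuclear receptor PPARA. Livers of the MycF/F genotype, labelled wt, gave 1 array on control diet (its RNA labelled as pooled) and 3 on Wy-14643. Those with MycF/F,ERT2-Cre, labelled ko, gave 4 arrays on either diet. All 4 groups carry the MycF/F alleles, and ERT2-Cre is a recombinase fused to a modified oestrogen receptor, which tamoxifen activates. The sources used here give neither the promoter that drives the Cre nor any tamoxifen treatment, age, sex or identity of the animals. The p-values therefore measure sample spread, which may be only technical. Each array compared a sample in Cy5 with a pooled liver reference in Cy3, and each value below is a log2 ratio to that reference unless it is called a difference. In whole liver, fewer cells of a type and less RNA per cell cannot be told apart.

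Before S phase, the origin recognition complex marks start sites, and TOPBP1 and the GINS complex help turn the loaded MCM helicase into a moving fork. Polymerase alpha with primase lays down primers, a clamp loader (RFC) places the ring-shaped clamp PCNA, and polymerases delta and epsilon extend the lagging and leading strands. Most hepatocytes of an adult liver are out of the cell cycle, and PPARA agonists are known to drive them into it in rodents. MYC and the E2F factors are known activators of many of these genes.

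Promoter windows of 300 bases (250 before and 50 after the transcript start, RefSeq, build GRCm38.p6) were at hand for 31 of the 37 measured genes, and the windows were searched on both strands for letters that E2F, MYC with MAX, and PPARA with RXRA are known to bind. The E2F letters TTTCCCGC or TTTGGCGC were in the windows of 6 of the 31 genes (19.4%), against 1.8% of the 27025 genes with a window. Their 7-letter cores TTCCCGC or TTGGCGC, which also count every 8-letter match and were searched after the longer forms, were in 17 of 31 (54.8%) against 7.79% of all genes. The E-box CACGTG, the core letters for MYC with MAX, was in 7 of 31 (22.6%: Pola2, Rfc1, Rpa1, Lig1, Fen1, Tyms and Chaf1a) against 8.09%. For the direct repeat DR1, the element for PPARA with RXRA, only the exact repeat was searched, with no mismatch allowed. It was in 0 of 31, against 13 of the 27025 genes (0.0481%). The exact repeat is too rare for 0 of 31 to tell these genes from others. Imperfect forms of DR1 were not searched, so the presence of PPARA sites was not tested. The windows below are those of the 3 genes with the lowest values when the genotypes were compared on Wy-14643, and of Fen1, whose window holds an E-box. Capitals mark TTCCCGC and CACGTG, and a position is counted from the transcript start to the first base of the match.
Uhrf1 (chr17:56303087-56303386, plus strand, TTCCCGC at -48): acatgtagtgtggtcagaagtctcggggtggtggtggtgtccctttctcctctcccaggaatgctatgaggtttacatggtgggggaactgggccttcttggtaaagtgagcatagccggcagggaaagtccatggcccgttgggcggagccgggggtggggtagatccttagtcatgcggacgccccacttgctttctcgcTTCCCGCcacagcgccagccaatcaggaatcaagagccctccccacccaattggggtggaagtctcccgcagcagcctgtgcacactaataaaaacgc
Rrm1 (chr7:102441445-102441744, plus strand, TTCCCGC at -67): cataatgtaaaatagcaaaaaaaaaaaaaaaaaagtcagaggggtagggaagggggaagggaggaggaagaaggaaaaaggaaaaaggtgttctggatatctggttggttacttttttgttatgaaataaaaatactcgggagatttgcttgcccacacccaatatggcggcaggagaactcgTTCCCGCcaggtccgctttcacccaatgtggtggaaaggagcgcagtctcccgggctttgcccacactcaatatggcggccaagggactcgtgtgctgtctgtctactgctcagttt
Chaf1a (chr17:56040166-56040465, plus strand, CACGTG at -99 and TTCCCGC at -47): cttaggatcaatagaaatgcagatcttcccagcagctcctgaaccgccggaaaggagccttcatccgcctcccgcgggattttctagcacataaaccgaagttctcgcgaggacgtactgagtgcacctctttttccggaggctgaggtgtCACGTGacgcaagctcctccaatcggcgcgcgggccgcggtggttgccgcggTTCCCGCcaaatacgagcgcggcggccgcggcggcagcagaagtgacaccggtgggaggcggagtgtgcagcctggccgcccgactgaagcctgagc
Fen1 (chr19:10203872-10204171, minus strand, CACGTG at -18): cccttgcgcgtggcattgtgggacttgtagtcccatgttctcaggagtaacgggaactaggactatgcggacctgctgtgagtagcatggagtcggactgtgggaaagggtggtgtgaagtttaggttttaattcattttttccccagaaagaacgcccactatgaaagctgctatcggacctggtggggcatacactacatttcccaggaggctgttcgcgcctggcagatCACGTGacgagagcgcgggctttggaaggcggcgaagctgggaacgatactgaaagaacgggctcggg
A match describes these letters only, and no factor's binding was measured here.

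The arrays lay on 3 slides of 4 arrays, and slide and scan are the same factor. On the MycF/F control array the median log2 ratio was -0.0057. The 3 MycF/F arrays on Wy-14643 had medians of 0.54 (slide 1), 0.12 (slide 2) and 0.051 (slide 3). Among MycF/F,ERT2-Cre arrays on control diet the medians were 0.20 and -0.031 (both slide 1), -0.37 (slide 2) and -0.29 (slide 3). The 4 treated MycF/F,ERT2-Cre arrays had -0.52 (slide 1), -0.28 (slide 2), and -0.29 and -0.21 (both slide 3). All 4 treated MycF/F,ERT2-Cre arrays therefore lay below all 3 treated MycF/F arrays, while the MycF/F,ERT2-Cre control arrays of slide 1 lay above those of slides 2 and 3. Slide 1 also held more spots that the scanner software marked as outliers, 5.47% to 8.35% of each array against 0.904% to 1.84% on slides 2 and 3.

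**Figure D1:**
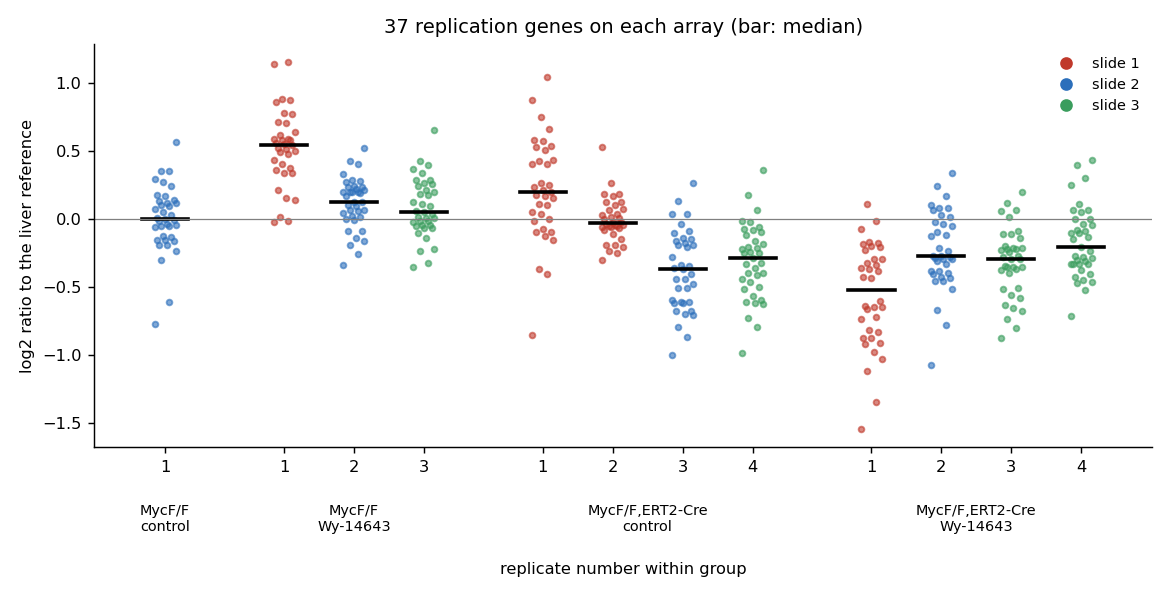
Log2 ratio to the liver reference (vertical axis) of the 37 measured replication genes on each of the 12 arrays, by group and replicate number, with the colour giving the slide and the bar the array's median. The treated MycF/F medians (0.051 to 0.54) lie above the treated MycF/F,ERT2-Cre medians (-0.52 to -0.21), and the slide 1 array lies farthest out in both treated groups.

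Median Cy5 signal over local background ran from 2.64 to 4.82 over the arrays, with 64.6% to 77.1% of all spots well above it. Of the hepatocyte markers, Alb, Apoa1, Ttr, Hnf4a, Fgb and Tat were well above background on all 12 arrays. Myc, the floxed gene, had 1 spot. Its log2 ratio was 0.58 on the MycF/F control array and 0.62 and 0.51 on 2 of the MycF/F Wy-14643 arrays, while in MycF/F,ERT2-Cre livers it was 0.72, 0.41, 0.42 and 0.0068 on control diet and -0.015, 0.053 and -0.070 on 3 Wy-14643 arrays. The spot was marked as an outlier on the remaining array of each Wy-14643 group. Of the MycF/F,ERT2-Cre control arrays, 1 lay near the treated ones and the other 3 lay on either side of the MycF/F control array. The difference between the genotypes on Wy-14643 was -0.57 (SE 0.17, limma adjusted p = 0.283), and that on control diet was -0.19 (SE 0.21, limma adjusted p = 1). Where the Myc probe lies relative to the floxed sequence is not known here, so its level checks the labels only in part.

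The comparison of MycF/F,ERT2-Cre with MycF/F livers, both on Wy-14643, asks how the replication genes differ under the drug between livers labelled ko and wt for Myc. The log2 difference was below 0 for 36 of the 37 genes, against 43.1% of all genes tested, with Orc2 the exception. The median was -0.55, against 0.02 over all 25171 genes tested. In 26 of the 35 genes with at least 3 arrays in each group, every MycF/F,ERT2-Cre array lay below every MycF/F array, against 5.54% of all genes, and in 0 of 35 did every one lie above, against 5.71%. With each array centred on its median in place of loess, 16 of 35 did not overlap, against 2.58% of all genes. None of the 37 passed limma's test at an adjusted p under 0.05 (Benjamini-Hochberg over all genes), a threshold that 17 genes (0.0675%) passed. With the replicate number as a block, 0 of the 37 and 0 of all genes passed. The 3 same-numbered pairs of treated arrays each shared a slide, but only 6 of 10 such pairs did over the groups. With slide itself as a block, Fen1 passed, beside 33 of all genes. In the fit without a block, 26 of the 37 were lower and 0 higher at an unadjusted p under 0.05, against 4.56% and 3.85% of all genes.

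**Figure D2:**
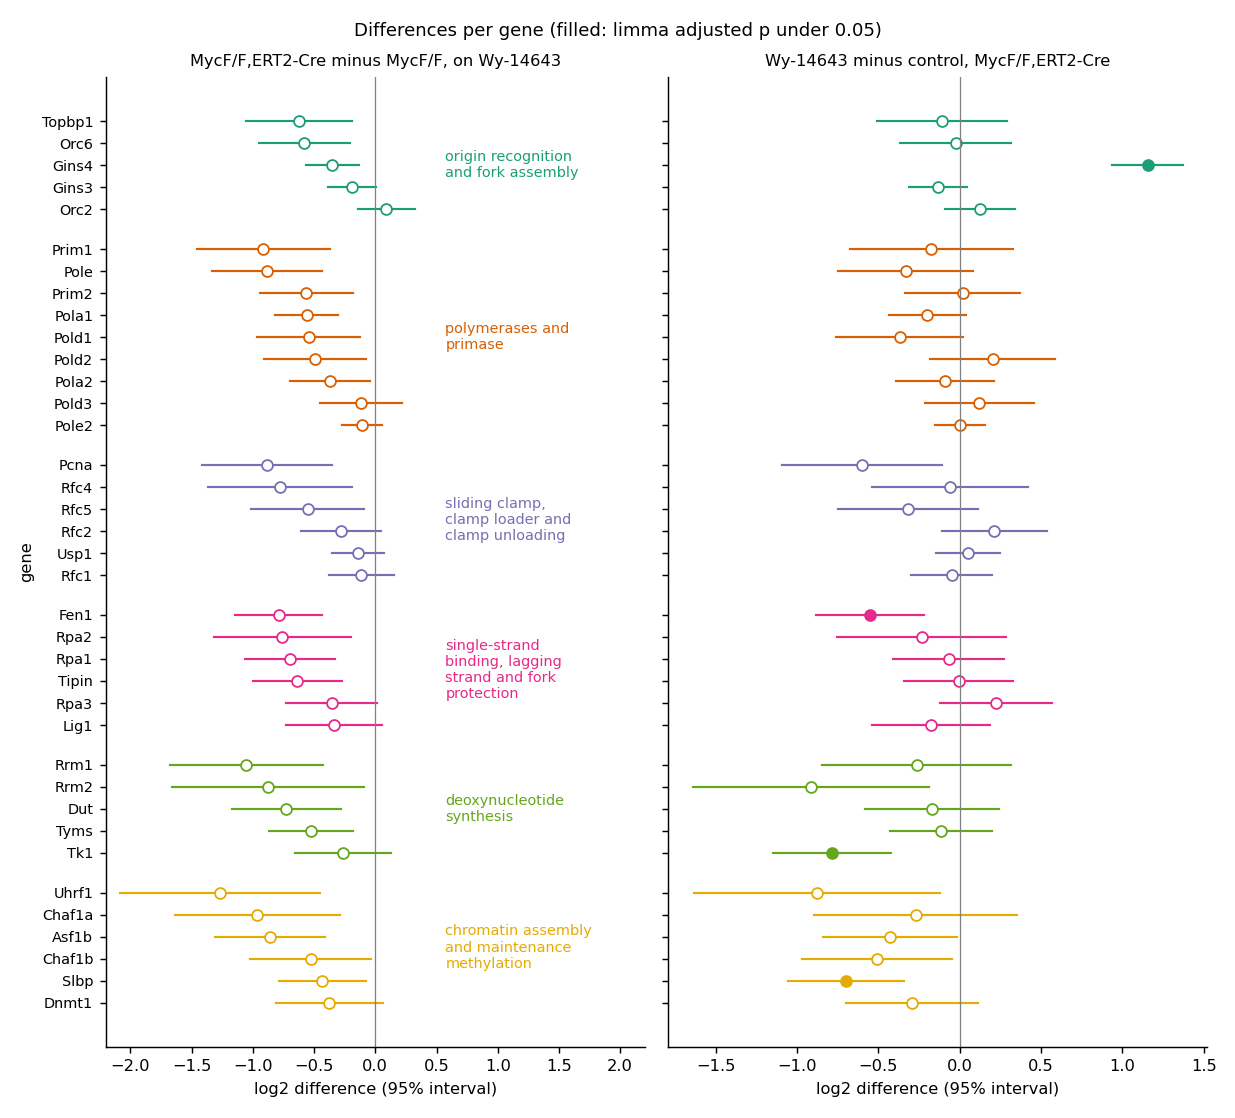
Log2 difference with its 95% interval (horizontal axes) for each of the 37 genes, grouped by role, between MycF/F,ERT2-Cre and MycF/F on Wy-14643 (left) and between Wy-14643 and control diet in MycF/F,ERT2-Cre (right), with filled points for a limma adjusted p under 0.05. On the left 36 of 37 points lie below 0 and none is filled, and on the right Gins4 lies above 0 and Fen1, Tk1 and Slbp lie below 0 as filled points.

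Uhrf1 gave the lowest value of the 37. Its protein reads hemimethylated DNA behind the fork and brings in the methyltransferase DNMT1. Uhrf1 was 1.15, 0.10 and -0.10 on the MycF/F Wy-14643 arrays (slides 1, 2 and 3), and -1.55, -0.78, -0.74 and -0.47 on the MycF/F,ERT2-Cre Wy-14643 arrays (slides 1, 2, 3 and 3). The groups did not overlap, and both slide 1 arrays were the extremes. The difference was -1.27 (SE 0.38, 2.41-fold lower, limma adjusted p = 0.258). On control diet Uhrf1 was 0.29 in the MycF/F array and 0.87, -0.0017, -0.71 and -0.19 in MycF/F,ERT2-Cre, a range that held the MycF/F value.

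Chaf1a encodes the large subunit of CAF-1, which deposits histones on new DNA. Its values were 1.14, 0.24 and -0.054 in treated MycF/F livers and -0.43, -0.44, -0.88 and -0.33 in treated MycF/F,ERT2-Cre livers. The genotypes did not overlap, and the highest MycF/F value came from slide 1. The difference was -0.96 (SE 0.31, 1.95-fold, limma adjusted p = 0.298). On control diet Chaf1a was -0.013 in MycF/F and 0.40, 0.025, -0.80 and -0.62 in MycF/F,ERT2-Cre. Of the 6 genes of chromatin assembly and maintenance methylation, all had differences below 0, from -1.27 to -0.38 with a median of -0.69, and 5 of the 6 did not overlap. Asf1b, a histone chaperone that works with CAF-1, had means of 0.34 ± 0.33 (SD, n = 3) in MycF/F and -0.52 ± 0.087 (SD, n = 4) in MycF/F,ERT2-Cre. Dnmt1, the maintenance methyltransferase, had the smallest difference of the 6, -0.38 (SE 0.20).

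The 5 genes of deoxynucleotide synthesis had differences from -1.05 to -0.26 with a median of -0.73, and 4 of the 5 did not overlap. Rrm1, the large subunit of ribonucleotide reductase, which makes deoxynucleotides from ribonucleotides, was 0.88, 0.40 and 0.26 in treated MycF/F livers and -1.35, -0.24, -0.64 and 0.062 in treated MycF/F,ERT2-Cre livers. All 4 MycF/F,ERT2-Cre arrays were below the lowest MycF/F array, and the slide 1 array was far below the other 3. The difference was -1.05 (SE 0.29, 2.08-fold, limma adjusted p = 0.213). Rrm2, the small subunit of the same enzyme, was 0.86, -0.34 and -0.33 in MycF/F and -0.64, -1.08, -0.81 and -0.72 in MycF/F,ERT2-Cre. The groups did not overlap, but the MycF/F arrays of slides 2 and 3 lay below 0, and the difference was -0.87 (SE 0.36, limma adjusted p = 0.515). Dut, which removes dUTP, had a difference of -0.73 (SE 0.20), and Tyms, which makes thymidylate, -0.52 (SE 0.16). Tk1, the thymidine salvage kinase of S phase, overlapped between the genotypes, with a difference of -0.26 (SE 0.18).

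All 9 polymerase and primase genes had differences below 0, from -0.92 to -0.11 with a median of -0.55, and 8 of the 9 did not overlap. The lowest were Prim1, the catalytic primase subunit, at -0.92 (SE 0.25), and Pole, the catalytic subunit of polymerase epsilon, at -0.88 (SE 0.21). Pola1, the catalytic subunit of polymerase alpha, had -0.56 with a small SE of 0.12 (limma adjusted p = 0.117). At the other end stood Pole2, the accessory subunit of polymerase epsilon. Pole2 was 0.14, 0.013 and -0.024 in MycF/F and -0.075, -0.038, -0.12 and -0.040 in MycF/F,ERT2-Cre, a difference of -0.11 (SE 0.076, limma adjusted p = 0.838) with no overlap but a gap between the groups smaller than the spread of the MycF/F arrays. Only 7 of 12 arrays read it well above background in Cy5, the fewest of the 37 genes.

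The clamp, its loader and Usp1 gave 6 differences below 0, from -0.88 to -0.12 with a median of -0.42. Of the 4 genes that could be compared, 2 did not overlap. Pcna, the sliding clamp, was read by 10 spots where each other gene's probe had 1. It had means of 0.29 ± 0.43 (SD, n = 3) in MycF/F and -0.59 ± 0.20 (SD, n = 4) in MycF/F,ERT2-Cre, a difference of -0.88 (SE 0.24, limma adjusted p = 0.215). Rfc1, the large subunit of the clamp loader, was 0.21, 0.20 and 0.39 in MycF/F and -0.17, 0.24, 0.11 and 0.43 in MycF/F,ERT2-Cre. The genotypes overlapped for Rfc1, and the difference was -0.12 (SE 0.12). Rfc4, a small loader subunit, had -0.78 (SE 0.27), and Usp1, which removes ubiquitin from PCNA, had -0.14 (SE 0.098).

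Single-strand binding, lagging strand and fork protection genes had 6 differences below 0, from -0.79 to -0.34 with a median of -0.67, and 4 of the 6 did not overlap. Fen1, the flap nuclease that trims Okazaki fragments, was 0.61, 0.22 and 0.18 in treated MycF/F livers and -0.30, -0.43, -0.56 and -0.53 in treated MycF/F,ERT2-Cre livers. The lowest MycF/F array lay above the highest MycF/F,ERT2-Cre array. The difference was -0.79 (SE 0.16, 1.73-fold, limma adjusted p = 0.106), the smallest adjusted p of the 37. Fen1 passed with slide as a block (-0.75, limma adjusted p = 0.0389) and in 4 of 24 alternatives in all, over which its adjusted p ran from 0.032 to 1. Rpa1, the large subunit of the single-strand binding complex RPA, had -0.70 (SE 0.17), and Tipin, which with TIMELESS stabilises the fork, had -0.64 (SE 0.17).

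Of the 5 measured genes of origin recognition and fork assembly, 3 did not overlap, and the median difference was -0.35. Topbp1, which triggers helicase activation, had -0.62 (SE 0.20), and Orc6, a subunit of the origin recognition complex, had -0.58 (SE 0.17). Orc2, another subunit, was the single gene above 0. Orc2 was -0.026, 0.061 and -0.049 in MycF/F and 0.11, 0.10, -0.11 and 0.25 in MycF/F,ERT2-Cre, with overlap and a difference of 0.09 (SE 0.11, limma adjusted p = 0.956).

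Each slide held both genotypes on Wy-14643, so the comparison could be made within slides. The median difference of the measured genes was -0.98 on slide 1, -0.26 on slide 2 and -0.36 on slide 3, with 33 of 34, 33 of 37 and 34 of 37 genes below 0. Of the 34 genes with a value on all 3 slides, 30 were below 0 on every slide, and 1 was above 0 on every slide. Fen1 was -0.91, -0.65 and -0.72 on slides 1, 2 and 3, nearly even. By contrast Uhrf1 was -2.70, -0.89 and -0.50, and Rrm1 was -2.23, -0.64 and -0.55. Without the 4 arrays of slide 1 the median was -0.37, and 2 genes passed, Fen1 (-0.70, limma adjusted p = 0.032) and Asf1b (-0.63, limma adjusted p = 0.0449). Asf1b passed in 1 of 24 alternatives, over which its adjusted p ran from 0.0449 to 1. Without slide 1, 29 of 37 genes did not overlap, against 13% of all genes.

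**Figure D3:**
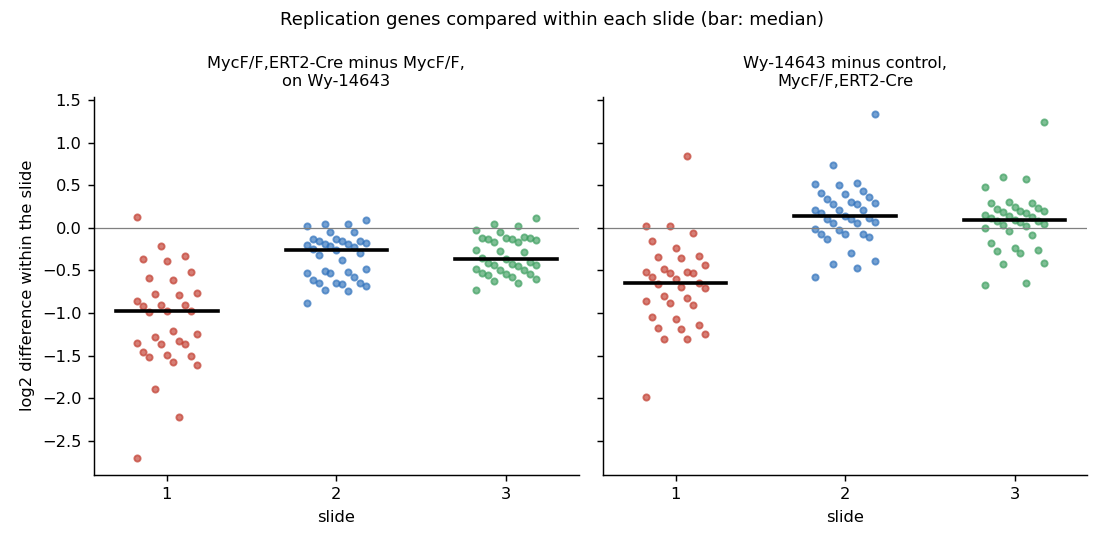
Log2 difference of each replication gene within slides 1, 2 and 3 (vertical axis), for treated MycF/F,ERT2-Cre minus treated MycF/F (left) and Wy-14643 against control diet in MycF/F,ERT2-Cre (right), with bars at the medians. The left medians are below 0 on every slide (-0.98, -0.26 and -0.36), and the right medians are -0.65 on slide 1 and above 0 on slides 2 (0.14) and 3 (0.094).

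Feeding Wy-14643 to MycF/F,ERT2-Cre mice changed 4 of the 37 genes (10.8%) at a limma adjusted p under 0.05, against 16.2% of 25162 genes tested (8.87% higher, 7.35% lower). Gins4 rose, and Tk1, Slbp and Fen1 fell. The median difference of the 37 was -0.17, against 0.03 over all genes, and 28 of 37 were below 0, against 43.7%. Every treated array lay below every control array for 4 of 36 genes with enough arrays (Fen1, Pcna, Slbp and Tk1), against 8.69% of all genes, and above for 1 (Gins4), against 10.4%.

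Gins4, a subunit of the GINS complex of the active helicase, was -0.86, -1.0 and -0.99 on 3 control arrays of MycF/F,ERT2-Cre, with its spot left out as an outlier on the other array. On Wy-14643 it was -0.014, 0.33, 0.20 and 0.30, above every control array. Gins4 rose by 1.15 on the log2 scale (SE 0.098, 2.23-fold, limma adjusted p = 1.41e-05), and was higher within each slide (0.84, 1.34 and 1.24). The call was lost with the Cy5 channel alone (0.78, limma adjusted p = 0.265, within a range of 5.54e-06 to 0.265 over 24 alternatives). In MycF/F livers it was -0.77 on control diet and 0.50, 0.52 and 0.65 on Wy-14643, a difference of 1.33 (SE 0.15, 2.51-fold, limma adjusted p = 3.26e-04). That test has a lone control array of pooled RNA and takes the spread from the other groups. It was lost with the Cy5 channel alone (1.62, limma adjusted p = 0.268) and with median centring (1.15, limma adjusted p = 0.065), within a range of 1.05e-04 to 0.268 over 23 alternatives. The drug effects differed between the genotypes by -0.18 (SE 0.18, limma adjusted p = 1), with a 95% interval from -0.57 to 0.21.

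Tk1 was 0.75, 0.10, 0.033 and 0.35 on the MycF/F,ERT2-Cre control arrays and -0.88, -0.40, -0.36 and -0.27 on Wy-14643. Every treated array was below every control array. Tk1 fell by 0.79 on the log2 scale (SE 0.17, 1.72-fold, limma adjusted p = 0.00657), and was lower within each slide (-1.30, -0.43 and -0.67). The call was lost with median centring (-0.65, limma adjusted p = 0.205) and with Cy5 alone (-0.65, limma adjusted p = 0.225), within a range of 0.00504 to 0.225 over 24 alternatives. In MycF/F livers Tk1 was 0.57 on control diet and -0.018, -0.26 and -0.36 on Wy-14643, a difference of -0.78 (SE 0.27, limma adjusted p = 0.135).

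Slbp encodes the protein that binds the stem-loop of replication-dependent histone mRNAs. It was 0.57, 0.13 and 0.063 on 3 control arrays and -0.61, -0.46, -0.40 and -0.33 on Wy-14643, with no overlap. Slbp fell by 0.70 (SE 0.16, 1.63-fold, limma adjusted p = 0.0122), with within-slide differences of -1.18, -0.58 and -0.43. The call was lost with median centring (-0.41, limma adjusted p = 0.271, within a range of 0.00334 to 0.271 over 24 alternatives). Fen1 was 0.53, 0.073, 0.036 and -0.25 on control diet and, as above, -0.30 to -0.56 on Wy-14643. Its highest treated array lay just below its lowest control array, and Fen1 fell by 0.55 (SE 0.15, 1.47-fold, limma adjusted p = 0.0258). That call was lost without MycF/F,ERT2-Cre Wy-14643 replicate 2, 3 or 4 (limma adjusted p = 0.0571, 0.0724 and 0.0727), and with median centring, the deposited log ratio or Cy5 alone (limma adjusted p = 0.177, 0.0674 and 0.267, within a range of 0.00287 to 0.267 over 24 alternatives).

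**Figure D4:**
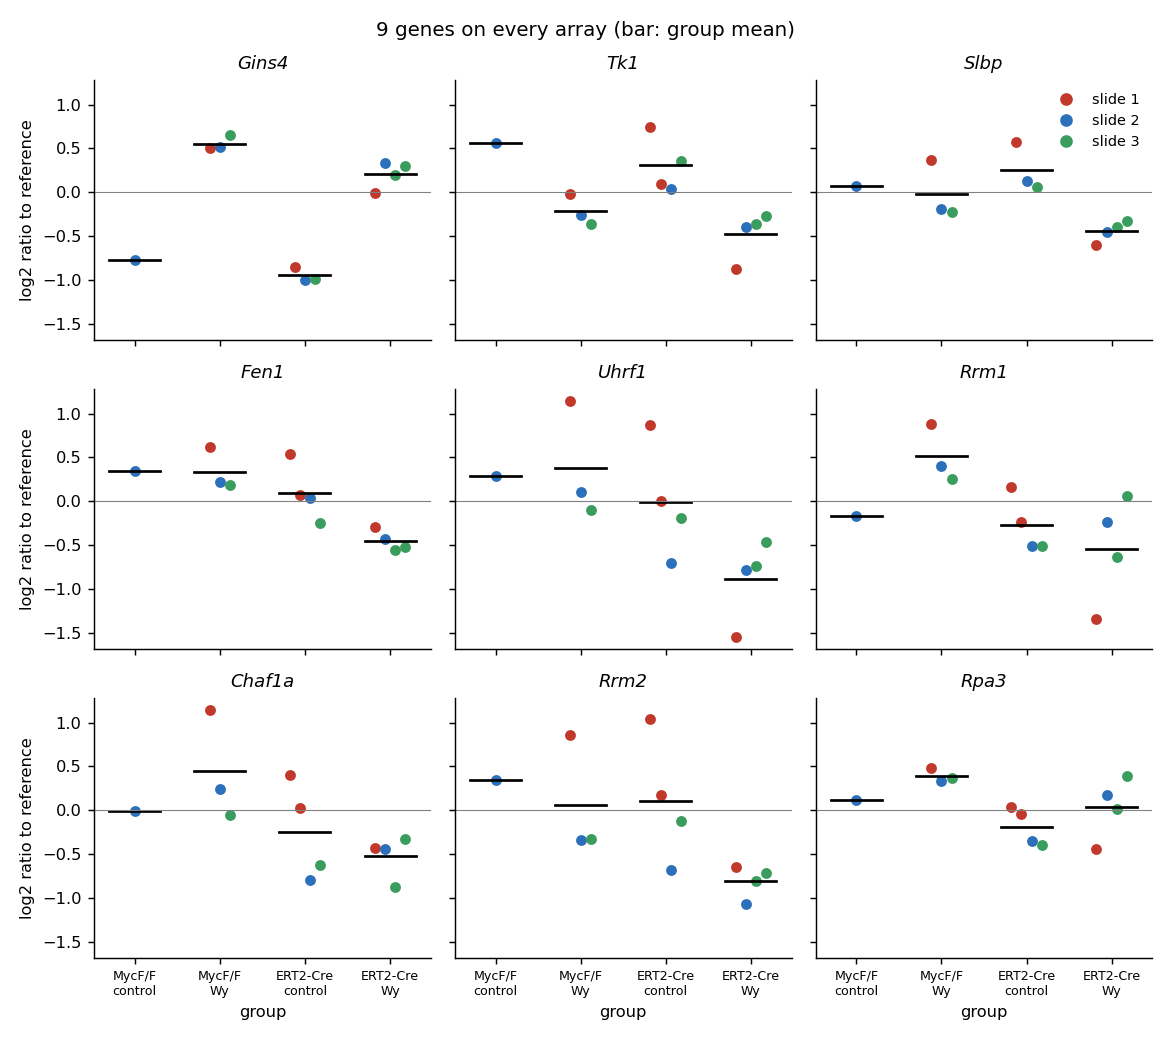
Log2 ratio to the liver reference (vertical axes) of 9 replication genes on every array, by group, with the colour giving the slide and the bar the group mean (ERT2-Cre stands for MycF/F,ERT2-Cre, and Wy for Wy-14643). Gins4 is higher and Tk1 lower on Wy-14643 in both genotypes, with 1 control array in MycF/F. Slbp is lower on Wy-14643 in MycF/F,ERT2-Cre. The slide 1 arrays spread widest for Uhrf1, Rrm1 and Rrm2.

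Among the genes that did not pass, Rrm2 and Uhrf1 had larger differences than Tk1. Rrm2 was 1.04, 0.18, -0.68 and -0.12 on the MycF/F,ERT2-Cre control arrays, a spread that reached the treated values, and its difference was -0.91 (SE 0.33, limma adjusted p = 0.087). It passed in 6 of 23 alternatives, with an adjusted p from 0.0129 to 0.365. Uhrf1 had -0.88 (SE 0.35, limma adjusted p = 0.116). Pcna did not overlap between the diets and had -0.60 (SE 0.22, limma adjusted p = 0.0961). Above 0, after Gins4, stood Rpa3, the small RPA subunit, and Rfc2, a clamp loader subunit. Rpa3 was 0.034, -0.046, -0.35 and -0.40 on control diet and -0.44, 0.17, 0.013 and 0.40 on Wy-14643, and its difference was 0.23 (SE 0.16). In MycF/F livers Rpa3 was 0.12 on control diet and 0.48, 0.33 and 0.37 on Wy-14643. Rfc2, read on only 2 control arrays (-0.41 and -0.24), was -0.38, 0.028, -0.20 and 0.11 on Wy-14643, a difference of 0.21 (SE 0.14). In MycF/F livers Rfc2 was -0.054 on control diet and 0.21 and 0.12 on 2 Wy-14643 arrays.

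Within slides the drug comparison in MycF/F,ERT2-Cre did not hold one direction. The median of the genes was -0.65 on slide 1, 0.14 on slide 2 and 0.094 on slide 3, and 32 of 35, 12 of 37 and 12 of 37 genes were below 0. Of 35 genes with a value on all 3 slides, 8 were below 0 on each and 2 above 0 on each. Without slide 1 the median was 0.13 and 7 of 37 genes passed, beside 4450 of all genes (4081 with slide 1). Fen1, Slbp and Tk1 again fell and Gins4 again rose, joined by Pold2, a polymerase delta subunit (0.58, limma adjusted p = 0.0028), Rpa3 (0.57, limma adjusted p = 0.00689) and Prim2, the regulatory primase subunit (0.36, limma adjusted p = 0.0186). Each of Pold2, Rpa3 and Prim2 passed in 1 of 24 alternatives, with adjusted p up to 0.926, 0.968 and 0.996. The count was also 7 without MycF/F,ERT2-Cre control replicate 3, beside 4064 of all genes. There Rrm2, Chaf1b and Uhrf1 passed as lower.

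In MycF/F livers the drug comparison rests on a lone control array, which was assumed to vary like the other groups. Gins4 was the single gene of 37 that passed (2.7%), against 6.49% of 24913 genes. The median difference was 0.22, against -0.0029 over all genes, and 7 of 37 genes were below 0, against 50.6%. Pold2 had the largest difference after Gins4, 0.86 (SE 0.29, limma adjusted p = 0.114), and Rrm1 had 0.68 (SE 0.43). On slide 2, which held both MycF/F groups, the median was 0.13 with 24 of 37 genes above 0.

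On control diet, MycF/F,ERT2-Cre against the lone MycF/F array gave 0 of 37 genes past limma's adjusted threshold, as for all 24898 genes tested (0%). At an unadjusted p under 0.05 the counts were 0 of the 37 and 442 of all genes (1.78%). The differences ran from -0.31 to 0.18 with a median of -0.16, and 30 of 37 were below 0, against 54.7% of all genes. That direction depended on the processing. With the replicate number as a block 18 of 37 were below 0, and with Cy5 alone 15 of 37 (median 0.0049). In the other alternatives most genes were below 0, among them 33 of 37 with slide as a block and 36 of 37 without slide 1. Within slide 2 the median was -0.37, with 35 of 37 genes below 0. That value sits beside -0.26 for the same slide on Wy-14643, each from 1 array per group.

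The difference of the drug effects between genotypes, which tests that comparison directly, gave 0 of 37 genes past limma's adjusted threshold, and 0% of 24874 genes. At an unadjusted p under 0.05 there were 2 of 37 (Pola1 and Pole, both below 0) and 538 of all genes (2.16%). The median was -0.48, against 0.03, and 33 of 37 genes were below 0, against 42.1%. On slide 2 alone it was 0.062, and without slide 1 it was 0.0064. These comparisons share arrays: both drug comparisons and both genotype comparisons enter the difference, and the genotype comparison on Wy-14643 uses the treated arrays of each.

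Other replication and nucleotide genes, 45 measured of 46 listed, gave 0 calls in the genotype comparison on Wy-14643, with 41 of 44 below 0 and a median of -0.30. Mcm5, a subunit of the MCM helicase, had the lowest difference of all 25171 genes tested, -1.64 (SE 0.40, limma adjusted p = 0.17, and 0.0491 to 1 over 24 alternatives), and is named here after its value was seen. Of the 45, 2 rose and 6 fell on Wy-14643 in MycF/F,ERT2-Cre livers, against 8.87% and 7.35% of all genes. Among them Mcm10, which binds the helicase, fell by 1.84 (SE 0.16, limma adjusted p = 1.03e-05), and Top2a, the topoisomerase of S phase and mitosis, fell by 1.22 (SE 0.28, limma adjusted p = 0.0093). Orc3 rose by 0.70 (SE 0.11, limma adjusted p = 0.00111) and Pole4 by 0.51 (SE 0.11, limma adjusted p = 0.00811), while Nme2, a nucleoside diphosphate kinase, fell by 0.41 (SE 0.069, limma adjusted p = 0.00162). Mcm10 passed in all 24 alternatives, Top2a in 23, and Orc3, Pole4 and Nme2 in 22 each. Their limma adjusted p ran up to 0.0011, 0.0618, 0.16, 0.416 and 0.838. In MycF/F livers, with a lone control array, the drug differences were -1.95 for Mcm10 and -0.50 for Top2a. For Orc3, Pole4 and Nme2 they were 0.79, 0.64 and -0.022.

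Of 13 measured G1/S regulators, Wy-14643 raised 2 and lowered 3 in MycF/F,ERT2-Cre livers, against 8.87% and 7.35% of all genes. Cdkn1a, the CDK inhibitor p21, rose by 1.51 (SE 0.30, limma adjusted p = 0.00402) and E2f8, a repressor of the E2F family, by 0.56 (SE 0.11, limma adjusted p = 0.00439). Cyclin genes Ccna2 and Ccne1 fell by 0.81 (SE 0.18, limma adjusted p = 0.00944) and 0.76 (SE 0.20, limma adjusted p = 0.0231), and E2f2 fell by 0.60 (SE 0.11, limma adjusted p = 0.00258). Cdkn1a and Ccna2 passed in 23 of 24 alternatives, E2f8 in 22 of 24, Ccne1 in 21 of 24 and E2f2 in 22 of 23, with adjusted p up to 0.0609, 0.064, 0.445, 0.156 and 0.0705. In MycF/F livers, with a lone control array, the drug differences were 1.87 for Cdkn1a and 0.59 for E2f8. For Ccna2, Ccne1 and E2f2 they were -0.195, -0.11 and -0.44. In the genotype comparison on Wy-14643, 0 of 13 passed and the median was -0.30. PPARA target genes checked the diet: 9 of 9 tested rose in MycF/F,ERT2-Cre (median 3.02) and 7 of 8 in MycF/F (median 3.24), and 0 of 10 passed in the genotype comparison on Wy-14643 (median 0.093).

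Kupffer cell and macrophage markers had genotype differences on Wy-14643 of the opposite sign to those of most replication genes. All 9 measured markers were well above background on all 12 arrays. Their median was -0.81 to -0.69 on the MycF/F Wy-14643 arrays and -0.38 to -0.22 on the MycF/F,ERT2-Cre Wy-14643 arrays, and all 9 had a genotype difference above 0 (median 0.42), 0 of them past the limma adjusted threshold. In the drug comparison in MycF/F,ERT2-Cre, 6 of the 9 fell past the threshold, against 7.35% of all genes. Their array medians on control diet there were 0.15 to 0.84. Hepatocyte markers fell past the threshold in that drug comparison in 4 of 6 (median -0.92), against the same 7.35%. In the genotype comparison on Wy-14643 0 of 6 passed (median 0.062). Medians of that genotype comparison were 0.029 for 9 lymphocyte and NK cell markers, -0.082 for 6 erythroid, 0.17 for 8 endothelial, -0.072 for 8 stellate cell and fibroblast, -0.013 for 6 cholangiocyte and -0.032 for 5 neutrophil markers, with 0 calls in each. Among the Kupffer cell and macrophage markers, 7 of 8 tested were above 0 between the genotypes on control diet (median 0.21). In MycF/F livers 8 of 8 tested were below 0 on Wy-14643 against control diet (median -0.83). Both of these comparisons rest on the lone MycF/F control array. Whether the make-up of the tissue has a part in the values of the replication genes was not tested.

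Of the 37 genes, 6 had more than 1 probe: Pold1, Pold3, Rfc2, Tyms, Dut and Uhrf1, each represented by its brightest. In the genotype comparison on Wy-14643 all probes of these genes were below 0. The other Uhrf1 probe gave -1.69 (SE 0.41) beside -1.27, the other Dut probe -0.50 beside -0.73, and the other Tyms probe -0.56 beside -0.52. RefSeq lists pseudogenes of Pcna, Tyms and Topbp1, and signal from such copies cannot be told apart from that of the genes here.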

How the data were processed

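Liver RNA from 12 samples was measured on 12 Agilent 2-colour arrays, each with a pooled liver reference in Cy3. The scanner files hold the authors' deposited spot intensity values. Per the file headers, the scanner software was Agilent Feature Extraction 11.0.1.1. The deposited log10 ratio of Cy5 over Cy3, background-subtracted and dye-normalized per the file headers, served only as an alternative, turned to log2. No column of another sample was used.

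Median signals were background-corrected (normexp, offset 50) and normalized within arrays (loess, with control and outlier spots at weight 0). Outlier spots were left out and the spots of a probe averaged. A probe stayed in if at least 3 of 12 arrays read it well above background in Cy5, and the brightest kept probe stood for its gene. Probes were named through RefSeq (GRCm38.p6) by accession without version, which matched 16792 of 17440 mRNA accessions. Of 41174 probes, 31861 were kept, for 25260 genes or unnamed accessions.

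Each group had its own mean in 1 fit over the 12 arrays (limma 3.58.1, R 4.3.3, 8 residual degrees of freedom), with Benjamini-Hochberg adjustment over all genes and a threshold of 0.05. The script was checked on simulated data with independent noise on each array and no slide effect. That check therefore does not cover the p-values where arrays of a slide are alike. In the genotype comparison on Wy-14643 the 3 same-numbered pairs correlated at 0.153 to 0.414 and each shared a slide, so the number pairs these samples through the slide. Genes with a missing value were fitted on the arrays left. Per-array values were printed for the genes past the threshold and for the 3 highest and 3 lowest in the drug comparison in MycF/F,ERT2-Cre and in the genotype comparison on Wy-14643, and up to 6 genes past the threshold were named from each related list. One gene that this rule names is not reported here. The other genes were named as examples of their role after their values were seen. The genes and the lists were chosen with earlier results of these data known. The number of arrays limits the precision. Alternatives covered slide and replicate blocks, normalization, background, filters, probe choice and left-out arrays.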

Additional observations from a re-analysis of the deposited data

Results flagged for a closer look

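Among treated MycF/F,ERT2-Cre livers, 1 sample stood apart from the other 3, relative to the range of the 4, for each of 2 genes. For Orc6, replicate 4 was highest, at a log2 ratio of -0.24 against -0.30 to -0.29, and the gap was 0.854 of the range. All 4 Orc6 values lay close together, with an SD of 0.027. For Rfc5, replicate 1, on slide 1, was lowest, at -0.98 against -0.30 to -0.21, and the gap was 0.885 of the range. Both exceed Dixon's critical value for 4 samples. These were 2 of 71 groups of 4 samples tested, and chance flags about 1 in 20.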

How the results depend on the processing

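No called direction reversed for the 37 replication genes, nor for the related genes past the threshold in the drug comparison in MycF/F,ERT2-Cre, whose alternatives were added after seeing the data. In the genotype comparison on Wy-14643 the count of replication genes past the threshold, 0, became 1 with slide as a block, 1 with only the groups compared in the fit and 2 without slide 1, and 0 to 1 with each array left out in turn (1 without MycF/F,ERT2-Cre control replicate 1). Over all genes, the 17 calls became 33, 46, 106 and, without that replicate, 27. The count of 26 without overlap, whose recomputation was added after seeing the data, became 16 with median centring, 24 with Cy5 alone and 26 to 29 with arrays left out. The share of all genes, 5.54% in the main fit, became 2.58%, 2.96% and 6.64% to 9.51%. In the drug comparison in MycF/F,ERT2-Cre the count of 4 became 1 with median centring and 2 with Cy5 alone (Slbp and Rrm2). It became 6 with slide as a block, 7 without slide 1 and 3 to 7 with arrays left out. Over all genes the 4081 calls became 831 with median centring and 1285 with Cy5 alone. They became 4628 with slide as a block, 4450 without slide 1 and 3094 to 4081 with arrays left out. In MycF/F the count of 1 became 0 with median centring, 0 with Cy5 alone, 3 without slide 1 and 3 with only the groups compared, and 1 to 2 with arrays left out. Over all genes the 1617 calls became 182, 255 and, without slide 1, 2813. The counts for genotype on control diet and for the difference of drug effects stayed at 0 in each alternative run. The cause of these shifts was not tested.

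With the replicate number as a block, 5 replication genes passed in the drug comparison in MycF/F,ERT2-Cre, 2 in MycF/F and 0 in each other comparison. Over all genes the counts were 4365, 1692 and 0 in each other comparison. Same-numbered samples correlated at -0.07 to 0.41 over 10 comparisons across genes, and 8 of 20 matches were best with the own number. Of these 10, 6 also share a slide, and all 13 same-slide comparisons were above 0 (0.087 to 0.414), so number and slide cannot be fully told apart. The median difference ran from -0.83 to -0.37 over alternatives for genotype on Wy-14643, from -0.35 to 0.0049 for genotype on control diet, from -0.39 to 0.13 for Wy-14643 against control in MycF/F,ERT2-Cre and from -0.64 to 0.0064 for the difference of drug effects.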
